A study of Mus musculus with 11 samples.

Results

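The genes of contact and secreted guidance signalling were followed in mouse mitral leaflets: the Eph receptors and their ephrin ligands, the semaphorins with their plexin and neuropilin receptors, and the netrins with their Unc5 receptors. Members were taken by gene symbol alone, and 61 of the 28591 gene symbols listed in the deposited tables matched, all of them in both tables. They comprised 9 EphA receptors, 5 EphB receptors, 5 ephrins of the A type and 3 of the B type, 7 semaphorins of class 3 and 13 of classes 4 to 7, 4 plexins of the A family and 5 of the B to D families, 2 neuropilins, 4 Unc5 receptors and 4 netrins. RNA was sequenced from 11 libraries in 2 experiments, each counted into its own table. In the first, 3 knockout libraries had the genotype NfatC1Cre(+), Ift88f/f and 2 wild-type libraries had NfatC1Cre(+); Ift88+/+, so that the Cre transgene was shared by both groups. NfatC1Cre acts in the lineage that expresses Nfatc1, in the heart mainly the endocardium and its descendants, so other cells of the leaflet could keep Ift88. Ift88 encodes a component of intraflagellar transport, which builds the primary cilium. In the second, 3 libraries were heterozygous for the S14R allele of Dzip1, a gene of the ciliary base, and 3 were Dzip1+/+. The study asked how the leaflet transcriptome differs under each of these alleles. The ages of the mice, and whether a library came from 1 animal or from a pool, are not given in the labels used here, so the p-values measure the spread between libraries, which may be technical.

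Eph receptors are receptor tyrosine kinases that bind ephrins held on the surface of a neighbouring cell, and signals run into both cells. Class 3 semaphorins are secreted and mostly act through a neuropilin, which binds them, and a plexin of the A family, which signals; semaphorins of the other classes bind plexins directly, and plexins act on the cytoskeleton and on adhesion. Netrins are laminin-related ligands of Dcc, neogenin and the Unc5 receptors. In the heart these systems are known from the patterning of vessels, the septation of the outflow tract and the growth of the endocardial cushions from which valve leaflets form.

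Upstream sequences are shown for Plxnb1, Plxnb2 and Unc5b, because these were the 3 members that any test used here called in the Ift88 experiment. Each sequence holds the 250 bases before the annotated start from RefSeq on GRCm38.p6, written 5′ to 3′ on the strand of the gene, and 53 of the 61 members had such an entry. Capitals mark a GC box (GGGCGG, read on both strands, so also CCGCCC) and the core of the X-box (GTTGCC, read on both strands), the motif of the RFX factors known from ciliary genes. No GC box overlapped an X-box core in these windows.
Plxnb1 at chr9:109095186-109095435, forward strand: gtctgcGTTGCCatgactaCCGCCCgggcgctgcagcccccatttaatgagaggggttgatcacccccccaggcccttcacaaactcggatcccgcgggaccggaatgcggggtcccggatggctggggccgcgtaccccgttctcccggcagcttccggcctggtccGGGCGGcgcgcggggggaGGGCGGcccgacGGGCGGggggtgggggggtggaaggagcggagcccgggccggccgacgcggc
Plxnb2 at chr15:89180789-89181038, reverse strand, the outer of 2 annotated starts: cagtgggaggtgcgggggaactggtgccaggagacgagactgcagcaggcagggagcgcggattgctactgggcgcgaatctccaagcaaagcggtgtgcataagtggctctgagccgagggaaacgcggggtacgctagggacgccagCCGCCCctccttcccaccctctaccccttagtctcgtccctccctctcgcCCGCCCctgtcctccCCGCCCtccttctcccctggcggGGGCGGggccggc
Unc5b at chr10:60831582-60831831, reverse strand: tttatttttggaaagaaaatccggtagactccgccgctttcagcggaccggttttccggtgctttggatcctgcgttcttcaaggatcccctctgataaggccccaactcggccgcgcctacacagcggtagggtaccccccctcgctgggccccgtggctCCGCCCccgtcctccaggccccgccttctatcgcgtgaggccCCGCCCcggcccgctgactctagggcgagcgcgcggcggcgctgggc
The Plxnb1 window held 4 GC boxes and 1 X-box core, the Plxnb2 window 4 GC boxes and the Unc5b window 2 GC boxes. A GC box was present in 32.7% and an X-box core in 10.4% of the 32851 annotated promoters of the same length. The Gli motif GACCACCCA, searched on both strands, was in none of these windows and in 0.225% of all promoters. Plxnb1 itself lies on chromosome 9 from 109095389 to 109119917, Plxnb2 on chromosome 15 from 89155549 to 89180788 and Unc5b on chromosome 10 from 60762593 to 60831581 (GRCm38, GENCODE M21). RefSeq and GENCODE place the start of Plxnb1 differently, so the last bases of its window, from 109095389 to 109095435, lie inside the GENCODE gene.

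Total counts per library were 23.4 to 53.8 M for Ift88 and 75.1 to 93.5 M for Dzip1. Levels are given as CPM (counts scaled to TMM-adjusted library size), and differences as log2 fold changes, mutant minus wild type, with the standard error (SE). Libraries of 1 genotype varied far more among the Ift88 samples (biological coefficient of variation 87.7%) than among the Dzip1 samples (7.85%). Ift88 itself stood at 7.54 and 19.8 CPM in the wild type, and at 3.00, 3.92 and 0.409 CPM in the knockout. The summed level of 20 cardiomyocyte markers was 139 CPM in wild-type library 2 and 36100 to 87300 CPM in the other Ift88 libraries, so that library stood apart from the rest. The 13 endothelial markers summed to 533 CPM in wild-type library 1 and to 2320 to 3670 CPM in the other 4. The 14 valve interstitial markers, of which none was at 0 in any library, summed to 7030 to 9880 CPM in the knockout and to 2290 and 4570 CPM in the wild type. In 10 of these 14 all knockout libraries exceeded both wild-type libraries, beside 13.5% of all tested genes. The 12 neuron markers, of which 1 to 6 were at 0 in each library, summed to 76.2 to 145 CPM in the knockout and to 64.2 and 88.9 CPM in the wild type. The 9 epicardial and mesothelial markers summed to 277 CPM in knockout library 2 and to 15.1 to 45.1 CPM in the other 4. Their part in the values below was not tested. In bulk tissue, fewer cells of a type and less RNA per cell cannot be told apart.

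In the Ift88 experiment the guidance genes mostly had higher levels in the knockout libraries, but no member passed the edgeR test. The smallest p in that test belonged to Plxnb2, Plxnb1 and Unc5b, while Sema4a, Sema3e, Unc5d and Sema4g, near-empty in the wild type, had larger log2 fold changes. Of the 52 members with enough counts to test, 44 had a log2 fold change above 0, 7 below 0 and 1 at 0.00; of all genes 49.4% lay above 0. Their median was 0.87, beside -0.013 for all 14244 tested genes. edgeR called 0 of the 52 members at an adjusted p of 0.05, and 0.0% of all genes. At an unadjusted p of 0.05 it gave 9 members higher and 0 lower, beside 4.75% and 1.26% of all genes. DESeq2 called Plxnb1, Plxnb2 and Unc5b higher and no member lower, beside 2.22% and 0.112% of all genes, and limma-voom called 0. The authors' deposited adjusted p called the same 3, beside 1.36% of all genes higher and 0.0699% lower. The groups were separated, with all knockout libraries above both wild-type libraries, in 15 members, and the other way round in 0, beside 13.5% and 11.1% of all tested genes. Sema4a and Unc5d among the 15 had 2 counts or fewer in each wild-type library. They had enough counts to test only through the knockout, so they could only appear as higher. The same holds for Sema3e and Sema4g among the 44 above 0, and Sema4a is also among the 9. With a mean count of at least 50 required, 13 members were separated with the knockout higher. No member's 95% interval lay within 1 log2 unit of 0 on either side, and the median SE was 1.07. Of the 14 valve interstitial markers 10 were separated in the same direction, and their part in these values was not tested. After a correction for transcript length the median of the members was 0.39 and 9 members were separated with the knockout higher. With the cardiomyocyte level as a covariate the median was 1.69. The mean log2 level of those markers was 2.21 in wild-type library 2 and 9.68 to 10.5 in the others, so the covariate mainly marks that library. That fit therefore rests largely on wild-type library 1 and is no separate check on cell content. Without wild-type library 2 the median was 1.82, and without wild-type library 1 it was 1.05.

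**Figure D1:**
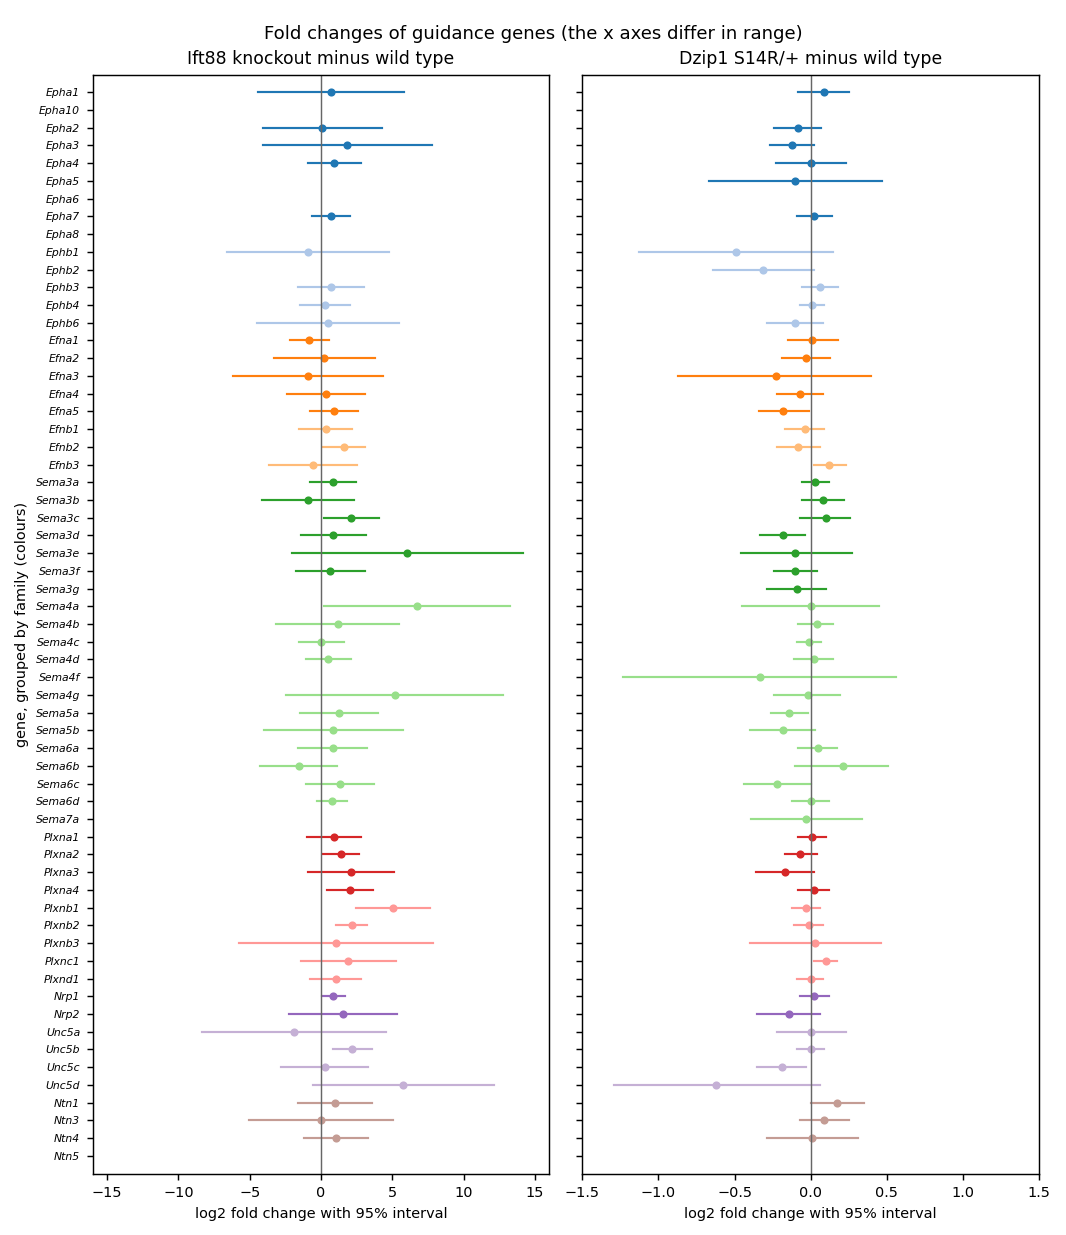
Log2 fold changes of the 61 guidance genes with 95% intervals (x axes, which differ in range), Ift88 knockout minus wild type on the left and Dzip1 S14R/+ minus wild type on the right, coloured by family and with no mark where a gene was not tested. On the left 44 of 52 points lie above 0 with wide intervals, and on the right 53 of 57 lie within 0.25 of 0.

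The 2 wild-type libraries of this experiment differed widely from each other in these genes. The median member differed 2.98-fold between them, and 20 of the 52 tested members differed over 4-fold (both on CPM + 0.5). Wild-type library 1 was the lowest of the 5 libraries in 23 members, wild-type library 2 in 13 and knockout library 3 in 11. Members listed without a count numbered 9, 5 and 15 in the knockout and 14 and 12 in the wild type. The 9 untested members were Epha5, Epha6, Epha8, Epha10, Ephb2, Sema3g, Sema4f, Sema7a and Ntn5, with at most 1.45 CPM in any library.

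Plexins are the signalling receptors of the semaphorins. All 9 plexins had log2 fold changes above 0, with a median of 1.71 for the A family and 1.91 for the B to D families, and 7 of the 9 were separated, beside 13.5% of all genes. All 9 belong to the longest of 5 classes of genes by transcript length, in which 31.3% of all genes were separated with the knockout higher. After a correction for length, Plxnb1, Plxnb2, Plxna3 and Plxnc1 were separated and Plxna1, Plxna2 and Plxna4 were not. Plxnb1, a receptor of Sema4d, stood at 16.1, 11.1 and 18.4 CPM in the knockout and at 0.761 and 0.173 CPM in the wild type, from 511, 469 and 450 counts against 20 and 10. The 3 knockout libraries lay close together, and both wild-type libraries lay far below them. Its log2 fold change was 5.04 ± 1.08 (SE), with an adjusted p of 0.802 in edgeR and 9.06e-06 in DESeq2. Exons of Plxnb1 share 257 bases with Gm7628 on the other strand, and the sources used here do not give the strand setting of the counting.

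Plxnb2, a receptor of class 4 semaphorins, stood at 93.9, 87.5 and 168 CPM in the knockout and at 27.4 and 25.1 CPM in the wild type. Its 2 wild-type libraries lay close together, and the part of marker content in the difference between the groups was not tested. The log2 fold change was 2.15 ± 0.447 (SE), with an adjusted p of 0.802 in edgeR and 0.00286 in DESeq2. Plxna4, a partner of neuropilins in class 3 signalling, stood at 16.4, 59.8 and 51.6 CPM in the knockout against 11.3 and 9.60 CPM. Plxna2, of the same family, stood at 20.2, 27.5 and 27.6 CPM against 7.12 and 11.9 CPM. The log2 fold changes of Plxna4 and Plxna2 were 2.03 ± 0.668 and 1.40 ± 0.532 (SE), or 0.78 and 0.29 after the length correction, and neither passed in edgeR or DESeq2. Plxna3 and Plxna1 were separated at lower levels, 3.35 to 6.06 CPM against 1.56 and 0.572 CPM for Plxna3 and 10.3 to 13.8 CPM against 3.08 and 9.83 CPM for Plxna1. Plxnc1, the receptor of Sema7a, stood at 11.1, 22.0 and 11.4 CPM in the knockout and at 0.228 and 7.64 CPM in the wild type, a span within the wild type that exceeded the gap between the groups. The groups overlapped for Plxnd1, the endothelial receptor of Sema3e, which stood at 8.88 to 25.7 CPM against 5.56 and 12.9 CPM, and for Plxnb3, at 0 to 5.12 CPM against 2.78 and 0 CPM.

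The neuropilins, which bind class 3 semaphorins and also members of the VEGF family, both had log2 fold changes above 0. Nrp1 stood at 232, 181 and 229 CPM in the knockout and at 128 and 106 CPM in the wild type. The groups did not overlap and the spread within each was small, but the difference of 0.87 ± 0.332 (SE) on the log2 scale missed the threshold in edgeR (adjusted p = 0.802) or DESeq2 (adjusted p = 0.346). Nrp2 stood at 15.2, 7.17 and 0.287 CPM against 1.75 and 3.38 CPM, with knockout library 3 the lowest of the 5 libraries.

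Among the semaphorin ligands, 15 of the 17 tested members had log2 fold changes above 0, with medians of 0.86 for class 3 and 0.87 for classes 4 to 7. Sema3e, Sema4a and Sema4g among the 15 had 1 wild-type count each and could only appear as higher. Sema3c, a secreted ligand known from septation of the outflow tract, stood at 20.1, 68.0 and 56.2 CPM in the knockout and at 17.1 and 5.15 CPM in the wild type. The lowest knockout library lay close to the higher wild-type library, and the log2 fold change was 2.11 ± 0.789 (SE). Sema6d, a transmembrane ligand of Plxna1 known from cardiac morphogenesis, stood at 37.9, 50.2 and 30.7 CPM against 26.9 and 19.7 CPM, with a log2 fold change of 0.77 ± 0.433 (SE). Sema3a, the ligand of Nrp1, overlapped, at 88.8, 106 and 57.6 CPM against 17.6 and 74.3 CPM. Sema3f, the ligand of Nrp2, overlapped as well, at 19.4, 60.5 and 109 CPM against 9.86 and 70.5 CPM. For both ligands wild-type library 1 was the lowest of the 5.

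Sema4a was near its detection limit, with 126 counts over the knockout libraries against 1 over the wild-type libraries. Scaled to library size the ratio was 107, and counting error alone allows 18.9 to 4280 (95%). Its level was 0.158, 1.18 and 2.91 CPM in the knockout libraries, the highest in library 3. Sema3e had 144 counts against 1, a ratio of 123 (21.7 to 4880), and Sema4g 52 against 1, a ratio of 44.3 (7.61 to 1780). Each of these 2 was listed at 0 in a knockout library, and the intervals cover counting error only. Sema6b and Sema3b were the 2 semaphorins with log2 fold changes below 0, -1.58 ± 1.11 and -0.89 ± 1.33 (SE). Sema6b stood at 1.39 to 2.70 CPM in the knockout and at 2.63 and 10.2 CPM in the wild type. Sema4c, a ligand of Plxnb2, was at 18.7, 10.9 and 26.2 CPM against 10.6 and 25.8 CPM, a log2 fold change of 0.03 ± 0.649 (SE), and its sign turned under RLE scaling. The other semaphorins, Sema3d, Sema4b, Sema4d, Sema5a, Sema5b, Sema6a and Sema6c, had log2 fold changes from 0.52 to 1.32, and their groups overlapped.

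Unc5b, a netrin receptor known from endothelial cells, was the third member called by DESeq2. It stood at 35.8, 54.6 and 64.7 CPM in the knockout and at 6.77 and 15.9 CPM in the wild type. The lowest knockout library lay well above the higher wild-type library. The log2 fold change was 2.19 ± 0.570 (SE), with an adjusted p of 0.802 in edgeR and 0.026 in DESeq2. Without wild-type library 1 or without wild-type library 2, the log2 fold change was 1.67 or 2.93 for Unc5b, 6.40 or 4.31 for Plxnb1 and 2.18 or 2.09 for Plxnb2. Unc5d had 137 counts in the knockout against 2 in the wild type, a scaled ratio of 58.4 (15.9 to 487), and its highest level was 1.84 CPM. Unc5c stood at 11, 13.3 and 0.573 CPM against 7.92 and 5.95 CPM, and Unc5a at 0 to 0.708 CPM against 0 and 3.26 CPM. The ligands overlapped between the groups: Ntn1 was at 14.6, 9.88 and 1.92 CPM against 5.02 and 3.93 CPM. Ntn4, a basement membrane netrin, was at 16.1, 70.4 and 106 CPM against 12.3 and 50.7 CPM. Ntn3 was at 0.164 to 6.18 CPM against 0.0381 and 7.30 CPM, a log2 fold change of 0.00.

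Of the 9 tested Eph receptors 0 had separated groups, which with so few genes is near the 13.5% and 11.1% of all genes. Ephb4, the venous partner of ephrin B2, stood at 168, 283 and 229 CPM in the knockout and at 54.4 and 324 CPM in the wild type, so that the wild-type libraries held both the lowest and the highest value. Epha7 was at 83.7, 68.2 and 92.9 CPM against 23.5 and 76.9 CPM, and Epha4 at 14, 24.5 and 20.9 CPM against 16.7 and 3.97 CPM. Ephb3 was at 3.54, 22.1 and 23.1 CPM against 14.8 and 5.70 CPM. Epha3, a receptor known from cushion development, was at 10.6, 0.212 and 9.46 CPM against 3.81 and 0 CPM, with high and low libraries in both groups. Epha1, Epha2, Ephb1 and Ephb6 stood below 16 CPM in every library, with log2 fold changes from -0.88 to 0.71.

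Of the ephrins, Efnb2, the ligand of Ephb4 that marks arterial endothelium, stood at 40.0, 59.7 and 93.3 CPM in the knockout and at 12 and 30.4 CPM in the wild type. The groups did not overlap, and the difference of 1.60 ± 0.605 (SE) on the log2 scale missed the threshold in edgeR (adjusted p = 0.802) or DESeq2 (adjusted p = 0.326). Efna5 was also separated, at 21.1, 15.4 and 14.5 CPM against 13.6 and 4.68 CPM. Efna1, a ligand known from valve growth, went the other way on average, at 103, 73.7 and 79.1 CPM against 65.6 and 240 CPM. Its log2 fold change of -0.84 ± 0.563 (SE) rested on wild-type library 2, and without that library it was 0.38. Efnb3 was at 50.8, 13.0 and 4.50 CPM against 62.3 and 4.92 CPM, with 1 high library in each group. Without wild-type library 1 its log2 fold change of -0.56 became 2.19. Efna2, Efna3, Efna4 and Efnb1 overlapped, with log2 fold changes from -0.94 to 0.35.

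Other genes of the same pathways were counted from lists of co-receptors and effectors, and edgeR called 0 members of each. The lists were not matched or corrected for transcript length. By length class, the share of all genes separated with the knockout higher ran from 3.89% in the shortest to 31.3% in the longest. Of 25 tested plexin effectors, DESeq2 called 2 higher and 6 were separated with the knockout higher, beside 1 lower (Gipc1); the shares of all genes were 2.22% called, 13.5% separated higher and 11.1% separated lower. Mical2, an oxidase of actin downstream of plexins, stood at 198, 299 and 240 CPM in the knockout and at 86.0 and 92.6 CPM in the wild type, with an adjusted p of 0.0132 in DESeq2 and 0.802 in edgeR. Dpysl3, a collapsin response mediator, stood at 597, 456 and 581 CPM against 250 and 221 CPM, with an adjusted p of 0.0456 in DESeq2 and 0.802 in edgeR. Of 12 tested co-receptors, 2 were separated, also near that 13.5%, and DESeq2 called Robo1, a Slit receptor, at 29.1, 18.9 and 15.9 CPM against 2.21 and 4.56 CPM (adjusted p = 0.00609). Kdr, the VEGF receptor that works with Nrp1, overlapped at 97.1, 162 and 109 CPM against 37.5 and 98.1 CPM. Of 23 tested effectors of Eph and ephrin signalling, 4 were separated, all higher and near the 13.5% of all genes, and DESeq2 called 0. The kinases Abl1 and Abl2 among them had log2 fold changes of 1.77 ± 0.616 and 1.56 ± 0.573 (SE). Of 6 tested netrin receptors and related ligands, Neo1, the neogenin gene, was the separated one, at 20.3, 79.9 and 46.8 CPM against 17.2 and 15.0 CPM.

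Fold changes in the Ift88 experiment followed transcript length, and guidance genes have long transcripts. The longest annotated transcript of the tested members had a median of 4915 bases, against 3330 for all tested genes. When all genes were split into 5 equal classes by length, the shortest class had a median of -0.465 and the longest a median of 0.743 (log2 fold change). Of the members, 24 lay in the longest class, and all 24 had log2 fold changes above 0. Their median was 1.32, beside 0.743 for all genes of that class, most of which therefore also lay above 0. The exact share of that class above 0 is not given here. Sema3e and Unc5d among the 24, nearly without wild-type counts, could only appear as higher. In that class 11 of the 24 members had separated groups with the knockout higher, beside 31.3% of all its genes, and 0 with the knockout lower, beside 3.11%. After a correction for length in each library, the members' median was 0.39 beside -0.06 for all genes, and 42 members lay above 0. The share of all genes above 0 after this correction is not given here beyond their median. Separated groups were then found in 9 members higher and 2 lower (Sema6b and Unc5c), beside 10.2% of all genes in each direction. The 9 were Plxnb1, Plxnb2, Unc5b, Efnb2, Nrp1, Plxna3, Plxnc1, Sema4a and Unc5d, all of them among the 15. Of these, Sema4a and Unc5d could only appear as higher. The log2 fold changes of Plxnb1, Plxnb2, Unc5b and Nrp1 were then 4.07, 1.49, 1.68 and 0.80, while those of Plxna2 and Sema6d went to 0.29 and 0.06.

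**Figure D2:**
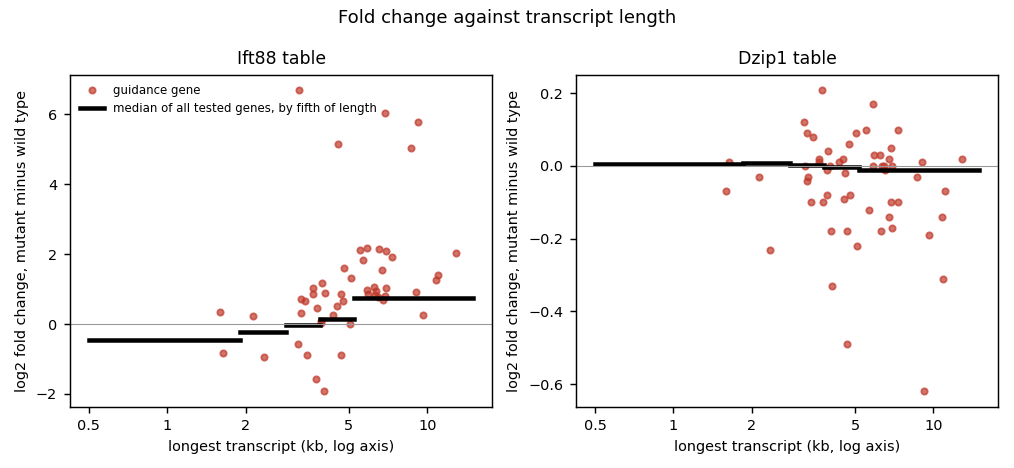
Log2 fold change (y axis) against the length of the longest annotated transcript in kb (x axis, log scale) for the guidance genes (points), with the median of all tested genes in 5 classes of length (black bars), Ift88 on the left and Dzip1 on the right. The bars climb from -0.465 to 0.743 in the Ift88 table, and most points in the longest class lie above their bar; in the Dzip1 table the bars stay near 0.

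Levels of the same genes in the Dzip1 wild-type libraries were set beside those of the Ift88 libraries as values only, since the tables were counted apart and library preparation and genotype cannot be told apart between them. For 43 of the 52 members tested in both tables, the Ift88 knockout mean lay nearer than the Ift88 wild-type mean to the Dzip1 wild-type mean (on log2(CPM + 0.5)). The share of all genes is not given here, so the count is not read as particular to the members. It may restate the direction of the Ift88 fold changes, of which 44 lay above 0. This held for 15 of the 15 members with separated groups, and in 12 of them all 3 Dzip1 wild-type libraries lay above all 3 Ift88 knockout libraries. The 15 were chosen as higher in the knockout. For those 12 the nearness therefore follows from the choice and says nothing about likeness between the groups. Plxnb1 stood at 122, 111 and 114 CPM in the Dzip1 wild type, above the 11.1 to 18.4 CPM of the Ift88 knockout. Unc5b stood there at 325, 316 and 299 CPM, against 35.8 to 64.7 CPM in the Ift88 knockout. The exceptions among the 15 were Sema3c, Sema4a and Unc5d, whose ranges in those 2 groups overlapped.

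**Figure D3:**
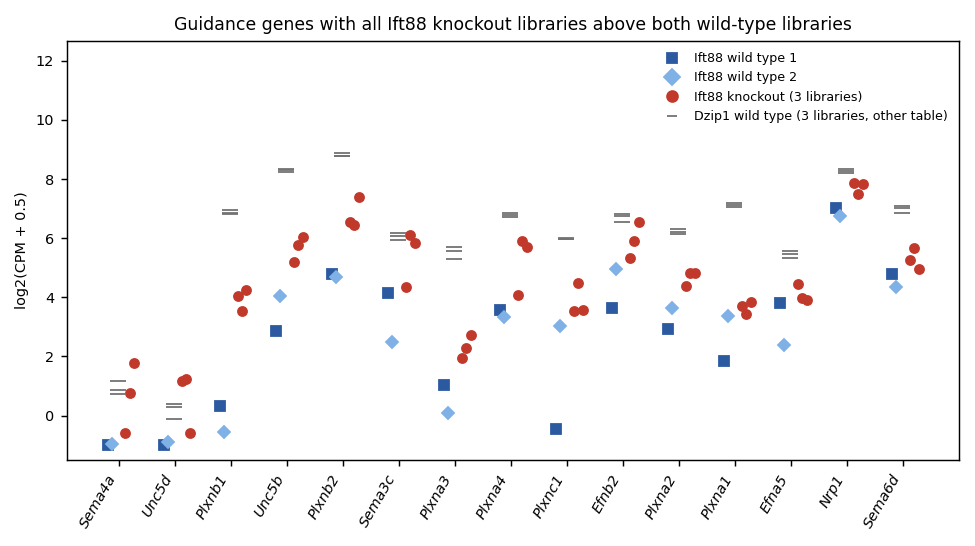
Level per library as log2(CPM + 0.5) (y axis) of the 15 guidance genes in which all Ift88 knockout libraries (red) lay above both wild-type libraries (blue square and diamond), with the 3 Dzip1 wild-type libraries of the other table as grey dashes. For Plxnb1 and Unc5b the red points lie above both blue marks and below all 3 dashes.

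The Dzip1 experiment, with its small spread and greater depth, gave the levels of nearly all members in the leaflet, and 57 of 61 could be tested. Compared per kb of longest transcript, Nrp1 was the most abundant member in the wild type, at 84.9 CPM per kb, followed by Plxnd1 at 73.7 and Plxnb2 at 69.6 CPM per kb. Efnb3 at 56.3, Unc5b at 53.5, Ephb4 at 48.1 and Ntn1 at 36.9 CPM per kb came next, so that a receptor or a ligand of every system was among the first 7. Between libraries, Plxnd1 overlapped with Plxnb2 and Efnb3 with Unc5b, and the other neighbours among these 7 did not overlap. Efnb2 and Efnb1 followed at 21.8 and 21.5 CPM per kb, and the most abundant semaphorin was Sema6d at 19.7 CPM per kb, ahead of Sema4c at 16.9. The most abundant EphA receptor was Epha7 at 14, the most abundant ligand of the A type Efna1 at 15.5 and the most abundant class 3 semaphorin Sema3c at 12.1 CPM per kb. At the other end Unc5d, Epha5 and Sema4f stood below 0.1 CPM per kb, and Epha6, Epha8, Epha10 and Ntn5 had too few counts to test.

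**Figure D4:**
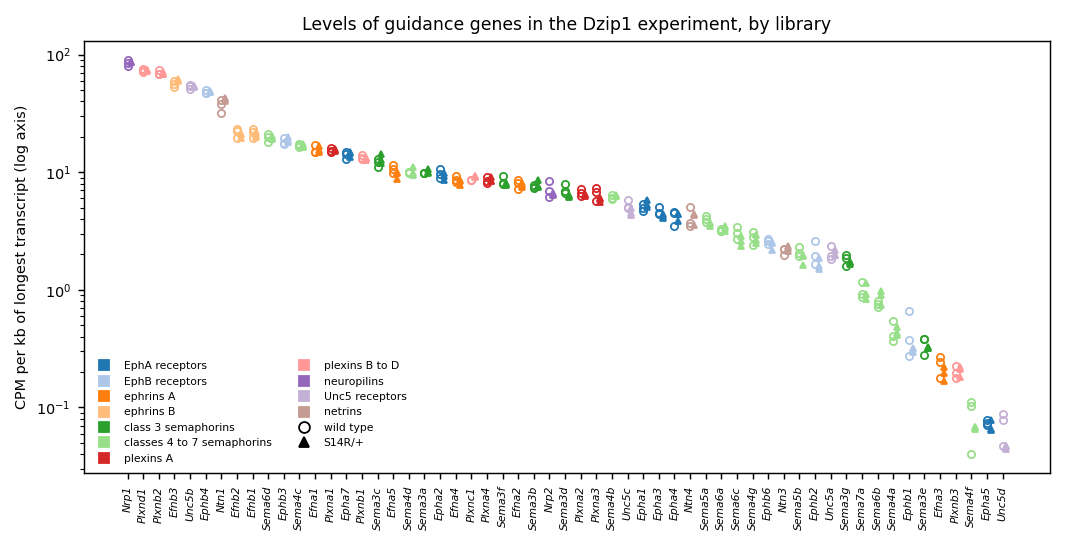
Level per library in CPM per kb of longest transcript (y axis, log scale) of the guidance genes tested in the Dzip1 experiment, ordered by the wild-type mean, with wild type as circles, S14R/+ as triangles and families by colour. Levels run from 84.9 CPM per kb for Nrp1 to under 0.1 for Unc5d, and circles and triangles overlap for most genes.

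No guidance gene passed a test of S14R/+ against wild type, and most estimates had narrow intervals. edgeR called 0 of the 57 members and 0.0% of all 16160 tested genes, DESeq2 called 0 members and 0.0% of all genes, and limma-voom called 0 members. The smallest adjusted p among the members was 0.822 in edgeR. At an unadjusted p of 0.05 edgeR gave 2 members higher and 5 lower, beside 2.41% and 3.53% of all genes. The median log2 fold change was -0.01, 53 members lay within 0.25 of 0, and the median SE was 0.071. For 50 of the 57 the 95% interval lay within 0.5 of 0 and for 54 within 1, which bounds the differences these libraries allow. The groups did not overlap in 2 members higher (Efnb3 and Plxnc1) and 2 lower (Sema3d and Sema5a), beside 5.27% and 5.01% of all genes. After the length correction these were 1 (Plxnc1) and 1 (Sema3d), beside 4.89% and 5.69% of all genes.

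Plxnc1 stood at 67.5, 67.5 and 66.0 CPM in S14R/+ and at 62.2, 62.7 and 63.2 CPM in the wild type, a tight but small separation with a log2 fold change of 0.10 ± 0.0333 (SE). Efnb3 stood at 195, 199 and 191 CPM against 179, 191 and 168 CPM, a log2 fold change of 0.12 ± 0.0467 (SE), with wild-type library 2 just below the lowest mutant library. Sema3d, a secreted semaphorin known from the patterning of the pulmonary veins, stood at 39.0, 40.7 and 39.8 CPM against 43.5, 42.3 and 50.2 CPM. Its log2 fold change was -0.18 ± 0.0642 (SE), and wild-type library 3 stood apart from the other 5 libraries. Sema5a had a log2 fold change of -0.14 ± 0.0539 (SE). Unc5c (-0.19), Efna5 (-0.18) and Sema6c (-0.22) also had an unadjusted p below 0.05 in edgeR, with overlapping groups. The 3 members that DESeq2 called in the Ift88 experiment had log2 fold changes of -0.03 ± 0.0409 for Plxnb1, -0.01 ± 0.0434 for Plxnb2 and 0.00 ± 0.0396 for Unc5b (SE).

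Among the receptors of high level, Nrp1 stood at 317, 312 and 315 CPM in S14R/+ and at 292, 325 and 311 CPM in the wild type, and Plxnd1 at 497, 514 and 513 CPM against 519, 495 and 514 CPM. Ephb4 stood at 209, 212 and 209 CPM against 205, 216 and 206 CPM. In these genes the S14R/+ values lay inside the wild-type range. Ntn1 stood at 250, 245 and 237 CPM against 224, 241 and 186 CPM, a log2 fold change of 0.17 ± 0.0783 (SE), where wild-type library 3 was low. The largest log2 fold changes, each with a 95% interval that held 0, were those of Unc5d at -0.62 ± 0.302, Ephb1 at -0.49 ± 0.286, Sema4f at -0.33 ± 0.402 and Ephb2 at -0.31 ± 0.146 (SE).

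Wild-type library 3 was the highest of the 6 libraries in 21 of the 57 members, beside 22.5% of all genes. This library and S14R/+ library 2 were female by Xist and Y-linked counts. In wild-type library 3 the 20 cardiomyocyte markers summed to 44600 CPM against 49700 to 53000 CPM in the others. The 14 valve interstitial markers summed there to 9470 CPM against 7560 to 8790 CPM, and the 11 leukocyte markers to 145 CPM against 103 to 127 CPM. Myh11 stood there at 23.4 CPM against 1.70 to 5.67 CPM. The sum of the 10 smooth muscle and pericyte markers, 2890 CPM, lay inside the range of the others. The part of these markers in the values above was not tested. With sex as a covariate edgeR called 0 members and the median was -0.01. Of the other pathway genes edgeR and DESeq2 called 0 in each list. For the lists that follow, the shares of all genes with separated groups were 5.27% higher and 5.01% lower. Among 26 tested plexin effectors 4 had separated groups, all lower, led by Dpysl4 at -0.36 ± 0.121 (SE). Among 25 effectors of Eph and ephrin signalling 2 were separated in each direction, Sipa1l1 (0.06) and Anks1b (1.40 ± 0.524) with the mutant higher and Vav2 (-0.10) and Anks1 (-0.04) with the mutant lower; Anks1b stood below 0.3 CPM in every library. Among 9 netrin receptors and related ligands, Hfe2 (0.19 ± 0.0639) was separated with the mutant higher and Rgma (-0.13 ± 0.0588) with the mutant lower, and none of 14 co-receptors was separated.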

How the data were processed

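RNA of 11 mitral leaflet libraries was made into cDNA with the SMART-Seq v4 kit, per the labels' protocols. The authors deposited whole-number counts per gene, 1 column per library, in 1 table per experiment. The submitters' processing notes name HTSeq, DESeq, DESeq2, cutadapt 1.11 and FastQC 0.11.5 with GRCm38; the sources used here do not give the aligner, annotation or strand setting. From the authors' own results in the Ift88 table, the deposited log2 fold changes, p-values and adjusted p-values served as 1 alternative; the deposited baseMean signal and the deposited score (Wald statistic) were not used beyond checking which columns were compared. In the Dzip1 table those statistics follow the last 3 against the first 3 columns (correlation across genes 0.996) and not the genotype labels (-0.6), so none is reported. In the Ift88 table they follow the labels (0.949).

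Each table was analysed apart in R 4.3.3 by the quasi-likelihood test of edgeR 4.0.16 (TMM scaling, filterByExpr, Benjamini-Hochberg over all tested genes, threshold 0.05). DESeq2 1.42.0, limma-voom 3.58.1, other scalings, filters, a threshold of 0.1, a lowess correction for transcript length (span 0.3), covariates and left-out libraries were alternatives. The steps were tested on simulated data. For changes of the size tried, edgeR recovered most in the Dzip1 setting but did not recover them in the Ift88 setting. Its count of 0 in the Ift88 experiment is therefore no evidence of equal levels. Replicates are numbered in accession order. The members and all gene lists were chosen with earlier results of these data known. Named are members past the threshold, the 2 with the smallest p in each family with a mean count of at least 50, the most abundant per kb and those with near-empty groups; other members named by value, and genes named for separated groups, were chosen after their values were seen. Exons of 18 members share bases with another gene, so their counts are uncertain to that extent.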

Additional observations from a re-analysis of the deposited data

How the results depend on the processing

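In the Ift88 experiment the number of guidance genes past the threshold was 0 in edgeR under every scaling, filter and left-out library tried, 0 in limma-voom, and 3 with DESeq2 and 3 with the deposited adjusted p, where the authors' deposited table gives log2 fold changes of 3.16 for Plxnb1, 1.80 for Plxnb2 and 1.71 for Unc5b; why the tests differ was not tested. With all libraries edgeR called 0 genes of the whole table, so its count of 0 across settings says nothing about stability. The median of 0.87 was 0.39 after the length correction and 0.70 to 1.82 with 1 library left out, the highest without wild-type replicate 2. It was 1.76 with the IR28N libraries alone and 1.69 with the cardiomyocyte covariate. The first of these fits held wild-type replicate 1 alone and the second rests largely on it, so they are not separate checks. Members with separated groups, knockout higher, numbered 9 after the length correction and 18 to 31 with 1 library left out, against 15 with all; separation is easier with fewer libraries, and leaving out wild-type replicate 2 gave 31, knockout replicate 3 gave 25. Members with the knockout lower numbered 1 with RLE scaling, 2 after the length correction and 0 to 8 with 1 library left out, the 8 without wild-type replicate 1. In the Dzip1 experiment the count past the threshold was 0 in every fit run and the median was -0.05 to -0.01 with 1 library left out. Separated members, mutant higher, numbered 1 after the length correction and 3 to 9 with 1 library left out, the 9 without wild-type replicate 2. Those with the mutant lower numbered 1 after the length correction and 2 to 17 with 1 library left out, the 17 without wild-type replicate 1. For neither experiment are the shares of all genes with a library left out given here. The counts with a library left out are therefore not read as particular to the members.

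Single genes that changed sign were, in Ift88, Efna1 at 0.43 with the IR28N libraries alone and 0.21 with the cardiomyocyte covariate, Efnb3 at 0.25 in limma-voom, Ephb3 at -0.20 with the IR28N libraries alone, Unc5c at -0.16 in limma-voom and -0.90 after the length correction, and Sema4c at -0.03 in DESeq2, -0.16 in limma-voom, -0.03 with RLE scaling, -0.05 after the length correction and -0.02 in the authors' deposited table. With 1 library left out the ranges that crossed 0 were -1.52 to 0.38 for Efna1, -1.97 to 2.19 for Efnb3, -0.55 to 2.06 for Ephb4, -0.20 to 2.68 for Sema3f, -0.50 to 0.82 for Sema4c and -0.26 to 0.81 for Unc5c. In Dzip1 they were -0.03 to 0.09 for Efna1, -0.03 to 0.07 for Epha7, -0.02 to 0.06 for Nrp1, -0.03 to 0.05 for Plxna1 and -0.06 to 0.01 for Plxnb1. The cause of these moves was not tested. Plxnb1, Plxnb2 and Unc5b ranged from 4.31 to 6.40, 1.79 to 2.32 and 1.67 to 2.93. Where 1 wild-type library remained, it was assumed to vary like the others. No paired analysis was possible because the labels give no replicate numbers shared between groups; the tag IR28N in the titles of 1 wild-type and 2 knockout libraries is not explained there and was used only for the fit of those libraries alone.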
